A study of Mus musculus with 4 samples.

Results

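The regions described here are the 5-hydroxymethylcytosine (5hmC) peaks of chondroprogenitors that were found again in chondrocytes. They are the autosomal peaks of the day 0 list that shared 1 bp or more with a day 20 peak, after the day 0 peaks of 100 kb bins holding 3 or more of them were left out. This gave 439 retained peaks of 1050 day 0 peaks in all, lying under 426 of the 56695 day 20 peaks. The cells were ATDC5, a mouse line of chondroprogenitors that turns into cartilage cells when given insulin, transferrin and selenite. All groups were therefore cultures of 1 line, kept in DMEM/F12 with fetal bovine serum, glutamine, antibiotics and ascorbic acid. There were 4 libraries of captured 5hmC, 2 from the chondrocyte stage (labelled day 19 and day 20, with insulin, transferrin and selenite) and 2 from the chondroprogenitor stage at day 0. Each stage was deposited as 1 list of peaks with a 10-fold enrichment in its merged libraries, without a height, fold or p-value per peak. The spread between libraries is therefore unknown and nothing is tested here. Values are positions, widths and counts, and the 95% intervals cover counting error only.

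5hmC is the oxidised form of 5-methylcytosine and is made by the TET dioxygenases. It sits mostly at CpG dinucleotides, in the bodies of transcribed genes and at enhancers. It can be a step on the way to unmethylated DNA or a lasting mark. A peak present at both stages marks a place where the modification was captured before and after differentiation. In cultures of many cells, a mark in more cells and more marks per cell cannot be told apart.

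The letters under a retained peak could be read where the peak lay in an annotated promoter window of RefSeq (GRCm38.p6), from 250 bases before to 50 bases after a gene start. Of the 439 retained peaks, 8 touched such a window (1.82%, 0.926 to 3.55%). The share was 0.551% (0.151 to 1.99%) of the day 0 peaks not retained and 2.49% (2.36 to 2.62%) of the day 20 peaks over no day 0 peak. The 4 retained peaks with the longest stretch inside a window are shown as the examples of what was captured at both stages. Each line gives the 250 bases before the gene start on the gene's own strand, 5′ to 3′, and capitals mark the bases inside the day 0 peak.
Lpin3: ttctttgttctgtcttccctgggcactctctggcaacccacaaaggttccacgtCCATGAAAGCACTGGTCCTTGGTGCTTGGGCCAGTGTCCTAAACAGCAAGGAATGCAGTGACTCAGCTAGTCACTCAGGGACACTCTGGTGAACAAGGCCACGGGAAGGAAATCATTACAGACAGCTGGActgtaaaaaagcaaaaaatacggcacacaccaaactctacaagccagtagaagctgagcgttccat
Gm52026: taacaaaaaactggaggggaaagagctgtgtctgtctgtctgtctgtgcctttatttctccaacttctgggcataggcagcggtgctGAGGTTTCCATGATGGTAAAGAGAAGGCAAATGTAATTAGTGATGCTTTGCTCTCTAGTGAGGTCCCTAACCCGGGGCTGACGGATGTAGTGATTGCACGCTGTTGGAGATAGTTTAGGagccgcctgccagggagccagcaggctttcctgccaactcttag
Gm17196: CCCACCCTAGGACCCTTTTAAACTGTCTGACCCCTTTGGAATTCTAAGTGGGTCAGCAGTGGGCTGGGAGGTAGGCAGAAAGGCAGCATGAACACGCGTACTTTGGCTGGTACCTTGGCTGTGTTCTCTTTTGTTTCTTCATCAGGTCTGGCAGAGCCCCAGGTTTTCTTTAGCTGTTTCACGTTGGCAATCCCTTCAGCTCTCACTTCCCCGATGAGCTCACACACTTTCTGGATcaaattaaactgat
Gm41331: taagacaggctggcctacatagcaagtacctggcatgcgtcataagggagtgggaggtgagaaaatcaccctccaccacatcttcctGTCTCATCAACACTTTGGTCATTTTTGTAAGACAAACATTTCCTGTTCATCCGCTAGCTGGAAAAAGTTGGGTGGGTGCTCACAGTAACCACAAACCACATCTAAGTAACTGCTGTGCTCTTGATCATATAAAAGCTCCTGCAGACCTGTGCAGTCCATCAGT
Lpin3 encodes a phosphatidate phosphatase of the lipin family, and it was the protein-coding gene among the 8. Its day 0 peak (chr2:160880474-160880603) lay wholly before the gene start at 160880670, and the day 20 peak (chr2:160879904-160881685) reached across the start into the gene. The other 3 genes are annotated as long noncoding RNAs. In Gm52026 the day 0 peak (chr13:119741609-119741727) also lay wholly before the start. In Gm17196 (chr10:41553271-41553538) and Gm41331 (chr15:60141748-60142058) it ran past an edge of the printed stretch. The dinucleotide CG, which reads the same on both strands, occurred 1 time in the 130 peak bases of Lpin3, 3 times in the 119 of Gm52026 and 4 times in the 236 of Gm17196 that lay in the window. In Gm41331 it occurred 2 times in the 213 peak bases of the window, which reaches past the printed stretch. The whole windows of 300 bases held 6, 5, 5 and 3 CG in that order of genes, against a median of 7 over the 32851 windows, of which 94.6% held at least 1. These 4 were chosen for the length of the stretch. Over all 10 windows that retained peaks touched the median was 5, and Gm36377 had 9.

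The members were chosen by their overlap with the day 20 list, so the share retained and the way the peaks lie on each other are descriptions. Outside the dense bins, 439 of 802 day 0 peaks were retained (54.7%, 51.3 to 58.2%), and the other 363 were not. In the 34 dense autosomal bins, an overlap was found for 73 of 224 day 0 peaks (32.6%, 26.8 to 39.0%), and all 224 were left out. Of the 439 retained peaks, 435 (99.1%, 97.7 to 99.6%) lay wholly inside the day 20 peak, and the overlap was under 50 bp in 1. That peak, chr13:51333620-51333844, shared 3 bp with its day 20 peak, and the next smallest overlap was 57 bp. On the other side, the closest 3 peaks that were not retained missed a day 20 peak by 1, 9 and 11 bp. The median gap of the 363 was 10389 bp, and a day 20 peak was within 100 bp of 8 of them, within 500 bp of 23 and within 1 kb of 37.

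Retained peaks sat near the middle of wider day 20 peaks. The day 20 peak was wider than the day 0 peak in all 439 pairs, by a median of 4.72 times (4.53 to 4.92). The 426 day 20 peaks had a median width of 703.5 bp (671 to 746 bp), and the 439 retained day 0 peaks of 146 bp (142 to 149 bp). The midpoints lay a median of 81 bp apart (74 to 89 bp), with no shift to one side (median 3 bp, −15 to 16 bp). In 370 pairs (84.3%, 80.6 to 87.4%) the day 0 midpoint fell within the central 50% of the day 20 peak. A peak nested in a wider one cannot have its midpoint at the edge, so part of this share follows from the widths. The 4 pairs that were not nested had day 20 peaks of 202, 472, 582 and 932 bp, and the first of these was the narrowest of all.

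**Figure D1:**
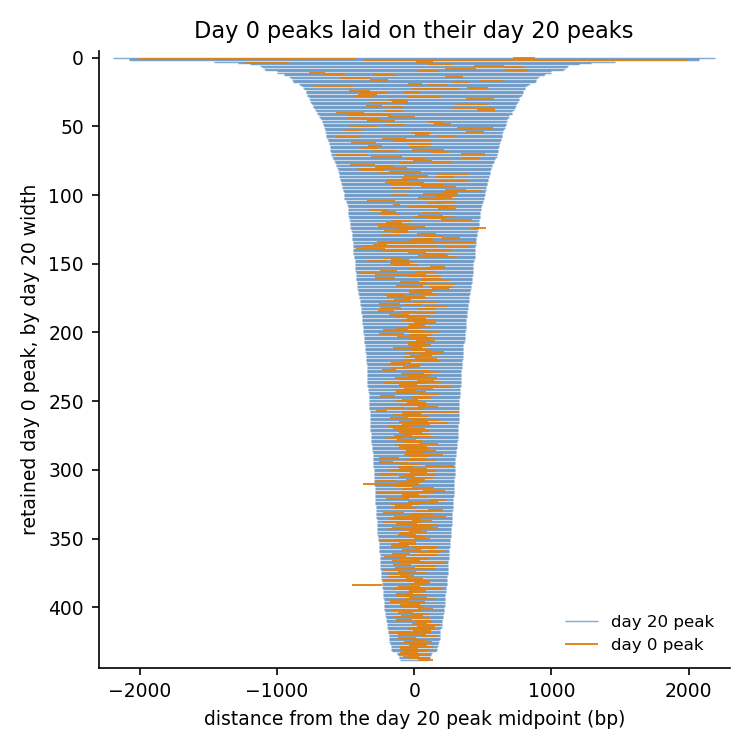
Day 20 peaks (blue) and the retained day 0 peaks on them (orange), 1 row for each of the 439 retained peaks, ordered by day 20 width. The horizontal axis is the distance from the day 20 midpoint in bp, and 435 of the orange bars lie wholly within the blue ones.

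At these places the peaks of both lists were wider than elsewhere. The day 20 peaks over retained peaks had a median of 703.5 bp, against 591 bp (589 to 594 bp) in the 55634 autosomal day 20 peaks over no day 0 peak. A wider peak offers more bases for an overlap. Retained day 0 peaks had a median of 146 bp, against 126 bp (123 to 129 bp) in those not retained. Among day 0 peaks of up to 100 bp, 7 of 81 were retained (8.64%, 4.25 to 16.8%). The share was 40.7% (33.7 to 48.0%) of the 177 with 101 to 125 bp and 58.5% (52.7 to 64.1%) of the 282 with 126 to 150 bp. It was 67.4% (59.3 to 74.5%) of the 144 with 151 to 200 bp and 83.1% (75.3 to 88.8%) of the 118 above 200 bp. The narrower a day 0 peak was, the less often it lay under a day 20 peak, and the intervals of the lowest and highest classes did not meet. The part of read depth, a value not given in the sources used here, was not tested.

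**Figure D2:**
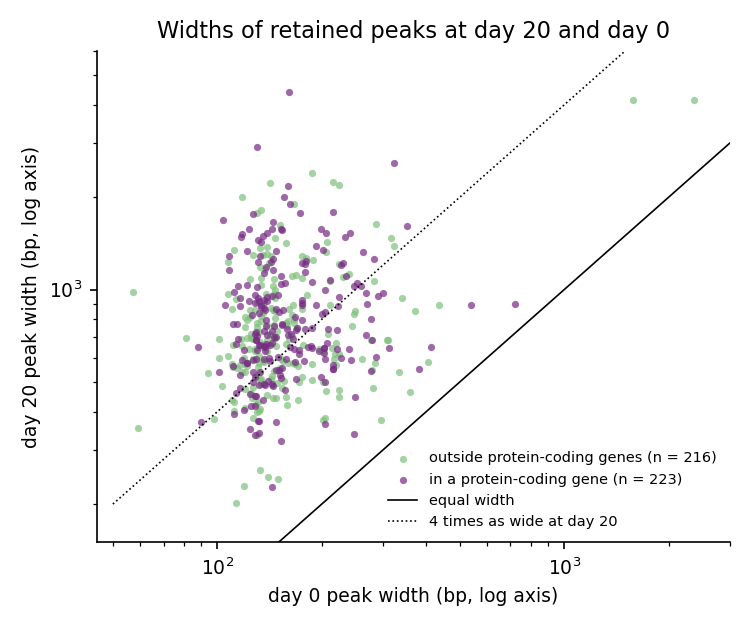
Width of the day 20 peak against the width of the day 0 peak for the 439 pairs, both in bp on log axes, by whether the day 0 midpoint lay in a protein-coding gene (223) or not (216). All points lie above the line of equal width, and the quartiles of the ratio are 3.41 and 6.58.

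The widest retained peaks were of another shape. The 2 widest at day 0, of 2361 and 1575 bp, lay side by side on chromosome 14 under 1 day 20 peak of 4158 bp (chr14:19415628-19419785), with no end of a protein-coding gene within 115178 bp. Next came 723 bp in Myc, the proto-oncogene that drives cell growth, where the day 20 peak spanned 899 bp (chr15:61989088-61989986). This was the narrowest margin of all pairs, 1.24 times. Myc also held a wider day 0 peak of 923 bp (chr15:61987425-61988347) that was not retained, 740 bp from the nearest day 20 peak and the widest of the 363. It was followed by 537 bp in Mdga2, a neuronal cell adhesion gene, under a day 20 peak of 892 bp. In Aida, a gene of 27.4 kb, the day 20 peak of 553 bp lay over 381 bp at day 0. The opposite case was Bahcc1, which encodes a chromatin-binding protein, where the widest day 20 peak, 4392 bp (chr11:120257086-120261477), lay over 161 bp at day 0. In Sulf2, an extracellular sulphatase that edits heparan sulphate, 2921 bp at day 20 lay over 130 bp at day 0. In Adamtsl3, a matrix glycoprotein gene, it was 2174 bp at day 20 over 160 bp at day 0. The pair on chromosome 14 was the overlap between the 10 widest retained peaks at day 20 and the 10 widest at day 0.

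The pairs of like width also stood in emptier surroundings. In 23 pairs the day 20 peak was less than 2 times as wide as the day 0 peak. A median of 1 other day 20 peak lay within 50 kb on each side of these (0 to 4), and 10 of the 23 had none (43.5%, 25.6 to 63.2%). In the 64 pairs of 8 times or more the median was 7 (6 to 7), and 5 had none (7.81%). The 2 classes between, of 137 and 215 pairs, both had a median of 5. No peak was left out here for lying in repeated sequence or where reads map poorly. The part of such sequence in the pairs of like width and in the widest peaks was not tested.

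Retained peaks lay in denser day 20 neighbourhoods than the day 0 peaks that were not retained. The count of other day 20 peaks within 50 kb on each side leaves out the overlapping peak, but it comes from the same list. Retained peaks are by rule places with a day 20 peak, where others are often near. A higher count than at the peaks not retained therefore follows in part from the rule. Its median was 5 around retained peaks (5 to 6) and 3 around the 363 that were not retained (2 to 4). It was also 5 around day 20 peaks over no day 0 peak. No other day 20 peak was near for 35 of 439 retained peaks (7.97%, 5.79 to 10.9%) and for 96 of 363 that were not retained (26.4%, 22.2 to 31.2%). The order was the same inside protein-coding genes, with medians of 6 (5 to 6) for retained peaks and 4 (4 to 5) for the others, and outside them, with 5 (4 to 6) and 2 (1 to 3). The median around retained peaks thus equalled that of the other day 20 peaks, and the peaks that were not retained more often stood apart.

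**Figure D3:**
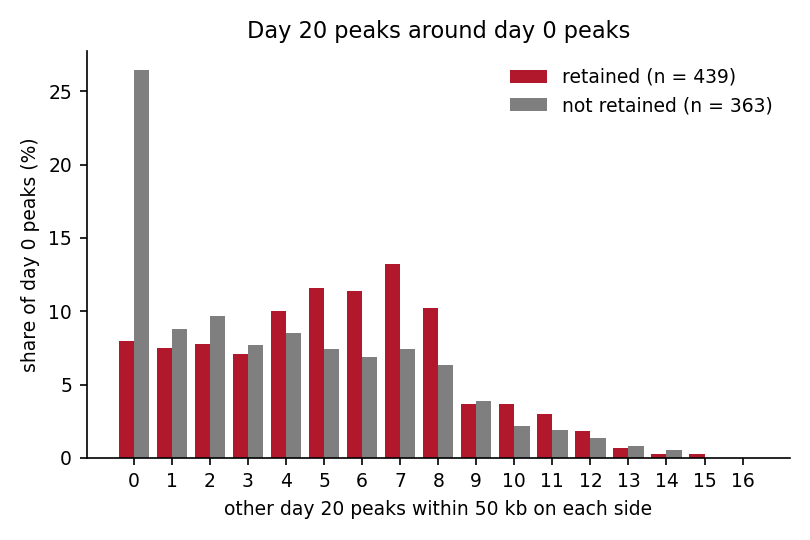
Share of day 0 peaks, in percent, by the number of other day 20 peaks within 50 kb on each side, for the 439 retained peaks (red) and the 363 that were not retained (grey). The grey bar at 0 reaches 26.4%, against 7.97% for the red one.

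The densest surroundings were those of Xxylt1, which encodes a xylosyltransferase acting on Notch receptors, with 15 other day 20 peaks around its retained peak (chr16:30981406-30981544). A peak 1260 bp outside Enah, an actin regulator, had 14, and 3 peaks had 13, in 9230112D13Rik, in Sestd1 and in Med13l. Ablim1, an actin-binding LIM protein gene, and Septin11, a cytoskeletal GTPase gene, had 12 each. Among the retained peaks with no other day 20 peak nearby were those of Aida and of Eef2, the translation elongation factor.

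By location, retained peaks resembled day 20 peaks in most classes. A protein-coding gene held the midpoint of 223 of 439 (50.8%, 46.1 to 55.4%), against 47.4% (42.3 to 52.5%) of those not retained and 54.2% (53.8 to 54.6%) of the day 20 peaks over no day 0 peak. In a lncRNA gene alone lay 9.34% (6.96 to 12.4%), against 7.44% (5.16 to 10.6%) and 9.11% (8.88 to 9.36%). Farther than 5 kb from any gene lay 27.1% (23.2 to 31.5%), against 30.6% (26.1 to 35.5%) and 25.2% (24.9 to 25.6%). In each of these classes the intervals of retained and not retained peaks overlap. Known starts of protein-coding genes were the exception, on a count of 3 retained peaks. Within 1 kb of an annotated start of a protein-coding gene lay 3 of 431 retained peaks (0.696%, 0.237 to 2.03%), against 10 of 354 not retained (2.82%, 1.54 to 5.12%) and 3.17% (3.02 to 3.32%) of the day 20 peaks over no day 0 peak. The interval for retained peaks lies below that of the day 20 peaks and overlaps that of the peaks not retained. For the promoter windows of all gene types, counted by overlap, the intervals of retained peaks and day 20 peaks overlapped. Starts were known for 17492 of 21887 protein-coding genes and for none on chromosome 18, so these shares are lower bounds for all 3 sets. Acr, with an annotated edge 101 bp from a retained peak, had no known start. The difference can therefore depend on the missing starts. For starts and ends of all protein-coding genes together, the intervals of retained peaks (1.91 to 5.28%) and day 20 peaks (4.92 to 5.29%) overlapped. Inside a gene the retained peaks were spread along it. For the 175 in 1 protein-coding gene of known strand, the median position was 43.6% of the gene length from the 5′ end (quartiles 21.7 and 69.2%).

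**Figure D4:**
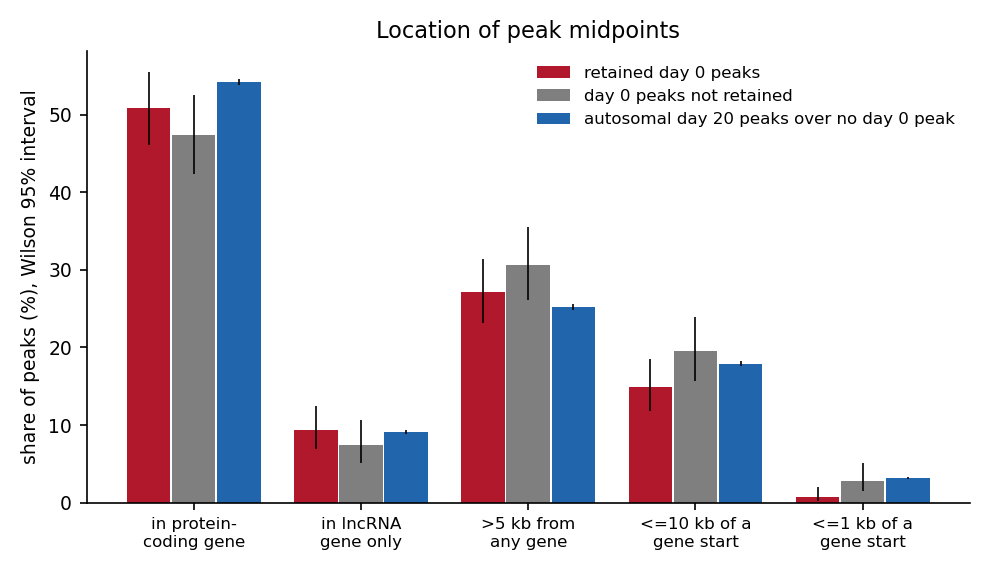
Share of peak midpoints, in percent with Wilson 95% intervals, in 5 overlapping location classes, for retained day 0 peaks (red), day 0 peaks not retained (grey) and autosomal day 20 peaks over no day 0 peak (blue). The bars are close in most classes, and within 1 kb of a known gene start the red bar is at 0.696% and the blue one at 3.17%.

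A start or end of a protein-coding gene was within 1 kb for 14 retained peaks (3.19%, 1.91 to 5.28%), against 4.13% (2.52 to 6.71%) of those not retained and 5.10% (4.92 to 5.29%) of the day 20 peaks over no day 0 peak. The share of retained peaks was thus no higher than in the other sets, and the 14 are named for their position alone. Besides Lpin3 and Myc these were the ends of Acr, the sperm protease acrosin, Bspry, Naa25, Map3k7cl, Sectm1b, Oasl1, N4bp2l1, Adam32, Bod1, Rem2, Ddx17 and Chrna5, whose neighbour Chrna3 holds the peak. Acr and Lpin3 were nearest, at 101 and 132 bp. Oasl1 is an interferon-induced gene, Ddx17 an RNA helicase gene and Chrna3 and Chrna5 encode nicotinic receptor subunits.

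The authors' gene symbols were the same in both lists wherever both gave one, at 247 of 247 peaks (100%, 98.5 to 100%). Since the peaks of a pair overlap by the rule, this was all but given and is a description. At 191 peaks neither list gave a symbol, and at 1 peak only the day 20 list did. Of the 247 peaks with a symbol, 211 lay in a protein-coding gene by position, and 36 lay in none.

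In all, 206 of 20665 autosomal protein-coding genes held a retained peak in the gene body (0.997%). A day 20 peak of any kind was present in 42.2% of genes, and a day 0 peak that was not retained in 0.818%. The genes with a retained peak were long. Their median length was 123 kb (101 to 163 kb), against 40.7 kb (39.7 to 41.9 kb) for genes with any day 20 peak and 17.5 kb (17.1 to 17.9 kb) for all. They carried a median of 7 day 20 peaks (6 to 9), against 2 in genes with any. A longer gene offers more bases for any peak, so both differences follow in part from how the genes were picked. Neither value is given here for the genes with a day 0 peak that was not retained. In 88 of the 206 (42.7%, 36.2 to 49.5%) there were 10 or more day 20 peaks. In 22 (10.7%, 7.16 to 15.6%) the day 20 peak over the retained peak was the gene's sole one. Among the 8727 genes with any day 20 peak the quartiles were 1 and 4 peaks, so a sole peak was common there too. Among these 22 were Myc and Eef2, which are 5.02 and 5.88 kb long, Rps6kb1, the fibrillar collagen gene Col5a3, the ciliary hedgehog regulator gene Evc, and Mdga2 with 763 kb. A further 46 genes with a retained peak were lncRNAs, among them Pvt1, the neighbour of Myc. Evc and Pvt1 were named after their values were seen.

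Genes of insulin, IGF, PI3K and mTOR signalling were the ones most often found with a retained peak among 16 gene lists. This pathway starts at the insulin and IGF-1 receptors and controls growth and protein synthesis through the kinase mTOR, and insulin is part of the medium that differentiates these cells. Of its 36 listed genes 4 held a retained peak, where 0.997% of all genes did, and 31 held a day 20 peak of any kind. Igf2r, also in the list, held a day 0 peak that was not retained. With bins holding 2 day 0 peaks left out as well, the list's count fell to 2, Igf1r and Rps6kb1. The list was chosen with earlier results on Igf1r and Mtor known and is no independent evidence. Igf1r, the IGF-1 receptor, held 2 retained peaks among its 20 day 20 peaks. The first spanned 1775 bp at day 20 and 173 bp at day 0 (chr7:67968473-67968645), 16.3 kb from the gene start, and the second 698 bp at day 20 and 146 bp at day 0 (chr7:68006340-68006485), 54.2 kb from it. Both lay in the early part of the 281 kb gene.

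Mtor held 2 retained peaks among its 7 day 20 peaks. They measured 600 bp at day 20 over 227 bp at day 0 (chr4:148513043-148513269) and 793 bp over 138 bp (chr4:148523450-148523587), in the part of the gene beyond its middle. Rps6kb1 encodes the S6 kinase, a direct target of mTOR, and its sole day 20 peak of 595 bp lay over 158 bp at day 0 (chr11:86517331-86517488). Eif4ebp1 encodes the other classical target, a repressor of translation initiation. In it, 1 day 20 peak of 1529 bp (chr8:27264934-27266462) lay over 2 day 0 peaks of 242 and 206 bp. These were the 4 genes with a retained peak among the 36 of the list. Mtor and Eif4ebp1 counted only with bins holding 2 day 0 peaks kept. Insr, Irs1 and Akt1 held no retained peak, which with a background of 0.997% of genes is not a result about them.

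Eef2, the elongation factor that moves the ribosome along the message, was the housekeeping gene with a retained peak, 1 of 22 autosomal genes in that list. Its sole day 20 peak, 1581 bp (chr10:81178336-81179916), lay over 2 day 0 peaks of 153 and 123 bp that were 247 bp apart. It had no other day 20 peak within 50 kb on either side.

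**Figure D5:**
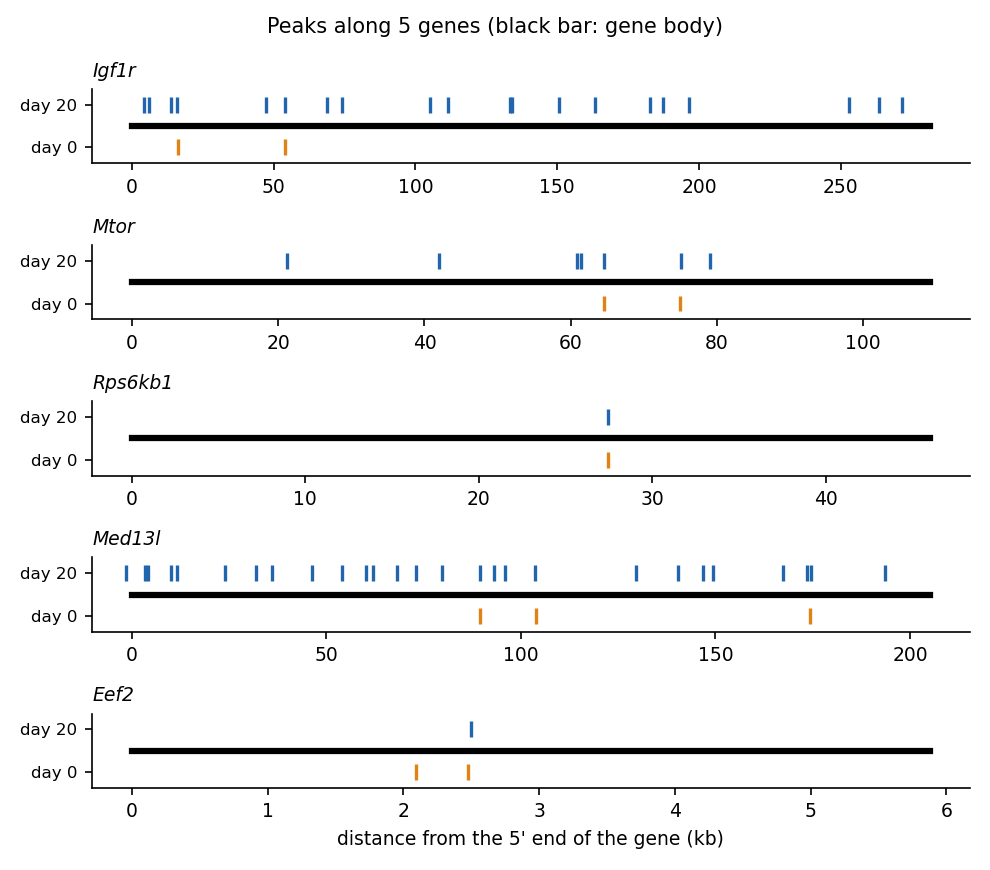
Midpoints of day 20 peaks (blue, above) and retained day 0 peaks (orange, below) along Igf1r, Mtor, Rps6kb1, Med13l and Eef2, as distance from the 5′ end of the gene in kb. The black bar is the gene body. Rps6kb1 and Eef2 have 1 day 20 peak each, and Med13l holds 3 retained peaks among 26.

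The 3 cartilage lists had no retained peak. Cartilage matrix genes had 0 of 30, chondrogenic transcription factors 0 of 30, and hypertrophy and mineralisation genes 0 of 23, although 21, 22 and 14 of their members held a day 20 peak. With a background of 0.997%, lists of this size hold few or none in any case, so these counts are not a result about the lists. TGF-beta and BMP signalling had 1 of 40, Ltbp1, which stores latent TGF-beta in the matrix. Its retained peak measured 639 bp at day 20 over 221 bp at day 0 (chr17:75263537-75263757), 1 of 30 day 20 peaks in the gene. Proteoglycan synthesis had 1 of 32, Ext1, a polymerase of heparan sulphate, with 1483 bp at day 20 over 117 bp at day 0 (chr15:53130776-53130892). WNT signalling had 0 of 35 in gene bodies, and Tcf7l2, its nuclear effector, was reached with 5 kb added on each side of the gene, as were Col6a3 and Itga11 in other lists. With that margin 1.25% of all genes held a retained peak. Hedgehog and FGF genes had 0 of 26.

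Among the remaining lists, the actin and adhesion list had 1 of 25, Tns3, which links integrins to actin, with 1500 bp at day 20 over 135 bp at day 0 (chr11:8628948-8629082). The neuronal list had 1 of 20, Auts2, a regulator of neuronal development, with 2 retained peaks among 61 day 20 peaks. No gene body in the lists of 5-methylcytosine enzymes and readers, fibroblast and mesenchymal progenitor genes, skeletal muscle, adipocyte, or haematopoietic and immune genes held one. Over all lists, 9 of 422 distinct autosomal genes held a retained peak (2.13%), and 9 held a day 0 peak that was not retained. Sox9, Runx1, Tet1 and Igf2r were among the genes with a peak that was not retained. The Tet1 peaks missed a day 20 peak by 9 and 530 bp and the Sox9 peak by 1472 bp. The median gap of all peaks not retained was 10389 bp, so for Tet1 the call rests on the edge of the overlap rule.

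In 16 protein-coding genes 2 or more retained peaks were found. Med13l, a subunit of the Mediator kinase module, had 3, on chr5 at 118649707-118649876, 118663971-118664271 and 118734545-118734675. The day 20 peaks over them spanned 752, 971 and 1228 bp and the day 0 peaks 170, 301 and 131 bp. They lay 89.5, 104 and 174 kb from the start of a 205 kb gene. Besides Igf1r, Mtor, Eif4ebp1, Eef2, Auts2 and Mdga2, the genes with 2 were the transcription factor genes Foxp1 and Zfhx3, the RNA-binding protein gene Msi2, the cyclic AMP phosphodiesterase gene Pde4d, the ubiquitin ligase genes Pdzrn3 and Rnf150, Cdkal1, Ttc28 and E030030I06Rik. In Foxp1 the day 20 peaks spanned 744 and 961 bp over 179 and 150 bp at day 0, 195 and 163 kb from the gene start. In Pde4d they spanned 709 and 708 bp over 139 and 130 bp at day 0, 98.5 and 604 kb from the start. Outside protein-coding genes, the lncRNA gene Gm30568 held 2.

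In 13 cases 1 day 20 peak covered 2 retained peaks, and in none more than 2. The 2 day 0 peaks were a median of 61 bp apart, between 7 and 247 bp. The closest was on chromosome 10 (chr10:14332398-14332936), and the widest gap was that of Eef2. Of the 13, 5 were in protein-coding genes: Rnf150, Mdga2, E030030I06Rik, Eif4ebp1 and Eef2. Of the 50 bins with 2 day 0 peaks, both were retained in 23, 1 in 13 and none in 14. Since 13 of the 23 shared 1 day 20 peak, their members were not separate places.

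Further genes, named after their values were seen, show the range of functions. Genes of transcription and chromatin included the repressor gene Etv6, the haematopoietic regulator gene Mecom, the histone acetyltransferase gene Kat6b, the demethylase gene Kdm2b, the corepressor gene Tle3, the metabolic coactivator gene Ppargc1a and the mesenchymal homeobox gene Prrx2. In Prrx2 the day 20 peak spanned 1570 bp over 144 bp at day 0 (chr2:30863822-30863965), with 10 other day 20 peaks around it. In Kat6b it was 1105 bp over 235 bp (chr14:21565719-21565953). With Foxp1, Zfhx3, Myc, Med13l, Rreb1, Eya2, Aff1 and Aff3, these 15 genes held between 1 and 59 day 20 peaks, with a median of 19, where all 206 genes had a median of 7. The 15 were picked by hand, so nothing follows from that difference.

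Matrix genes and their modifiers included Mmp2, the gelatinase that cuts denatured collagen, with 882 bp at day 20 over 116 bp at day 0 (chr8:92850321-92850436). Bmper and Crim1, both extracellular modulators of BMP signalling, had 774 bp over 111 bp (chr9:23300496-23300606) and 880 bp over 134 bp (chr17:78245645-78245778). Col5a3, which encodes a chain of type V collagen, had its sole day 20 peak of 1336 bp over 122 bp (chr9:20812575-20812696), 2.48 kb from the gene start. Adamts3, a procollagen N-proteinase, and the syndecan gene Sdc3 completed the group with Sulf2 and Adamtsl3, and these 8 genes held between 1 and 18 day 20 peaks.

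Genes of the cytoskeleton were Palld, Ablim1, Myo10, Fmnl2, Septin11, Sptbn1, Ssh1, Nedd9, Dst and Utrn, with between 7 and 31 day 20 peaks. Palld, an actin-bundling scaffold, had 632 bp at day 20 over 137 bp at day 0 (chr8:61775879-61776015). Myo10, a motor of filopodia, had 1686 bp over 104 bp (chr15:25809240-25809343). Signalling genes included the protein kinase C genes Prkca and Prkce, the kinase anchor gene Akap13, the adenylyl cyclase gene Adcy9, the calcineurin gene Ppp3ca, the calcium channel gene Itpr2 and the lysophosphatidic acid receptor gene Lpar1. In Prkce the day 20 peak spanned 1431 bp over 134 bp at day 0 (chr17:86591404-86591537), and in Ppp3ca 1453 bp over 131 bp (chr3:136872691-136872821). With Pde4d, these 8 genes were 119 kb or longer, and they held 14 to 50 day 20 peaks.

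Across the 19 autosomes the retained share lay between 38.1% (20.8 to 59.1%) on chromosome 3, with 8 of 21 peaks, and 69.0% (54.0 to 80.9%) on chromosome 1, with 29 of 42. Chromosome 5 held the most retained peaks, 46 of 89 (51.7%, 41.5 to 61.8%), and chromosome 11 held 39 of 58 (67.2%, 54.4 to 77.9%). The intervals of the lowest and highest chromosome overlap.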

How the data were processed

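Per the labels' protocols, genomic DNA of ATDC5 cells was put through a chemical capture of 5hmC and sequenced. Each list merges the libraries of 1 stage and is limited to 10-fold enriched peaks, per the file headers, so replicates could not be compared. The baseline of the 10-fold, the read depth and the use of the day 19 library in the day 20 list are not given in the sources used here. Names listed in the submitters' processing notes are FastQC, cutadapt, BWA, MACS 1.4.2 and GRCm38 (mm10), without what each did. In the deposited tables the numbers are peak starts and ends in base pairs, with no score, and 3 day 20 entries without a readable end were left out.

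Coordinates were treated as closed and counted from 1. Bins of 100 kb were fixed by peak start. Genes (49943, of which 21887 protein-coding) and promoter windows came from RefSeq, GRCm38.p6. The tables gave no exons, so none are named. Shares have Wilson 95% intervals and medians order-statistic 95% intervals. No p-value was computed, since peaks are not replicates. The members and gene lists were chosen with earlier results of these data known. Named genes were the list members with a retained peak, genes with 2 or more, and those at the widest, most and least crowded peaks and nearest gene ends. Further genes were picked once their values had been seen. The overlap and bin steps were tested on simulated peaks, where 300 of 300 planted overlaps of 1 bp and 0 of 300 planted gaps were called. Python 3.11.15 was used with numpy 2.4.6, pandas 2.3.3, scipy 1.17.1 and matplotlib 3.10.9.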

Additional observations from a re-analysis of the deposited data

How the results depend on the processing

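Of 44 alternative settings over 10 results, 40 stayed within the interval of the reported value or, for counts, within 1.5 times of it. The number of retained peaks ranged from 380, without bins holding 2 day 0 peaks, to 512, with no bin left out, against 439. The share in a protein-coding gene moved from 50.8% to 45.1% with no bin left out (42.8% of those not retained) and to 56.3% by the authors' symbols (54.0%). The share near a gene end moved from 3.19% to 15.9% at 5 kb (17.9%). Day 20 peaks around retained peaks moved from 5 to 4.3 per 100 kb with 500 kb on each side (3.4 around those not retained). Genes of the lists with a retained peak ranged from 6 (without bins holding 2 day 0 peaks, where Mtor, Eif4ebp1 and Eef2 were lost) to 12, against 9. No paired analysis was possible because the libraries of each stage were merged before deposit, and for the same reason no library could be left out. The unknown meaning of the 10-fold enrichment and the unknown depth limit every statement on presence at day 0.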
